A study of Mus musculus with 2 samples.

Results

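DNA replication and mitosis genes were counted in single islet cells of the wild-type (WT) library of a study of pancreatic islets. The 33 genes were given as a list: 24 act in mitosis, 7 in DNA replication, and Stmn1 and Hmgb2 are used more widely. All 33 were found among the 27998 genes of the WT table. Cells were the 4541 droplet barcodes with at least 5610 unique molecular identifiers (UMIs, 1 for each transcript caught), at least 500 detected genes and at most 15% mitochondrial UMIs. Of these cells, 43 (0.947%, 95% exact binomial interval 0.686 to 1.27) held a UMI of 5 or more of the 33 genes, and 4498 held fewer.

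Male mice aged 8 weeks had been fasted for 12 h. One group was WT and the other (TG) was transgenic for miR-203, with beta cells named as the site, and each group had 1 library. The labels name frozen islets and TRIZOL extraction, and also a sort of intestinal goblet cells followed by the 10x Genomics 3′ v2 protocol. These do not describe 1 preparation. How many mice gave the WT library is not stated there. The transgenic cells were not analysed here. With 1 library there is no replicate, so no test was run, and every interval covers counting error only.

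The cells were classed by the share of their UMIs that hormone transcripts took. Beta cells (3255) had at least 30% insulin (Ins1 and Ins2), alpha cells (423) at least 8% glucagon (Gcg), delta cells (136) at least 3% somatostatin (Sst) and PP cells (117) at least 8% pancreatic polypeptide (Ppy). A further 547 cells met no limit and 63 met more than 1. The median UMI count was 23415 in beta, 15015 in alpha, 8961 in delta, 21063 in PP and 16648 in cells that met no limit. RNA released into the suspension gives UMIs in any droplet. It was read from 589592 barcodes of at most 200 UMIs.

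A cell copies its DNA in S phase and divides its chromosomes in mitosis. In S phase the Mcm2 to Mcm7 ring unwinds DNA, Pcna holds the polymerase on it, and Rrm2 and Tyms supply nucleotides. Transcripts of the mitosis genes build up later, in G2 and mitosis: cyclins drive the kinase Cdk1, Aurora and polo kinases assemble the spindle, centromere proteins attach chromosomes to it, and Cdc20 and Ube2c start the destruction of cyclins. Beta cells of adult rodents divide rarely.

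The upstream sequences of the members that carry the counts are shown first, because late genes of the cycle are known for 2 promoter elements: CCAAT, bound by the factor NF-Y, and TTTGAA, bound by complexes that hold these genes off in resting cells and on in dividing ones. S phase genes are known for E2F sites, of which TTTNNCGC is 1 form. The 3 mitosis genes with the most UMIs in beta cells with 8 or more members, and the 2 replication genes with the most UMIs in cells that met no hormone limit and held 5 or more, were chosen among those with a sequence in the RefSeq table (build GRCm38.p6). Each line gives the 250 bases before the gene's start, 5′ to 3′, with the 3 motifs on either strand in capitals.
Cenpa, chr5:30666636-30666885, plus strand: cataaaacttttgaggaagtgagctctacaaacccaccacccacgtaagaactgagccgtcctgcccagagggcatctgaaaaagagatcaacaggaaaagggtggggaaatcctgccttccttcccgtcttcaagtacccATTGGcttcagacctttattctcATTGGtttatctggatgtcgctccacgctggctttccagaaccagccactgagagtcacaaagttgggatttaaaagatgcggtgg
Ube2c, chr2:164769679-164769928, plus strand: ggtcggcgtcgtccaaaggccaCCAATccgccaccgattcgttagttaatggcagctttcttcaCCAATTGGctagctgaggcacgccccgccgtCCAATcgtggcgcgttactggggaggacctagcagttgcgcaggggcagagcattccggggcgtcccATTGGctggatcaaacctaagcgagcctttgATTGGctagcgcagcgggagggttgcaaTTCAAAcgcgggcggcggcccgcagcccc
Ccnb2, chr9:70421555-70421804, minus strand: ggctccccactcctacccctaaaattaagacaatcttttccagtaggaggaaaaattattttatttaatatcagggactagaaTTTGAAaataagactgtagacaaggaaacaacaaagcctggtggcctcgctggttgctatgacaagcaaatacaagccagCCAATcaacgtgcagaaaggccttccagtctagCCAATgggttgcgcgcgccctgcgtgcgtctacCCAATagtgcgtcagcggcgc
Pcna, chr2:132253181-132253430, minus strand: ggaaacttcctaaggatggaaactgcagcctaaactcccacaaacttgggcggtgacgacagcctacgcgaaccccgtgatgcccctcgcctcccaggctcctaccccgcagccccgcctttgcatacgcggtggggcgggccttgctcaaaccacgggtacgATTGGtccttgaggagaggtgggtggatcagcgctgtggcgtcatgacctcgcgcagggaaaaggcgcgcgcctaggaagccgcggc
Mcm6, chr1:128359706-128359955, minus strand: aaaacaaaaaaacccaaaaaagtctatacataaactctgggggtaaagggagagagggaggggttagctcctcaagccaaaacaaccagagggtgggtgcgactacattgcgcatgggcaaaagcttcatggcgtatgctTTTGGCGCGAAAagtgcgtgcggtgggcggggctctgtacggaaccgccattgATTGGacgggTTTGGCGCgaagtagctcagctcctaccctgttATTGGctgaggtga

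Over windows from 250 bases before to 50 bases after the start, 20 promoters of 19 mitosis members and 7 promoters of the 7 replication members were in the table. CCAAT stood in 18 of the 20 mitosis promoters (90%) and in 6 of the 7 replication promoters (85.7%), against 37.4% of all 32851 promoters. TTTGAA stood in 15 of 20 mitosis promoters (75%), in 1 of 7 replication promoters and in 17.9% of all. The same 15 mitosis promoters held both, against 6.95% of all. TTTNNCGC stood in 4 of 7 replication promoters, in 1 of 20 mitosis promoters and in 5.17% of all. No hit of one motif overlapped a hit of another in these promoters. In the printed lines, Ube2c holds 6 CCAAT hits, of which 1 pair shares bases on opposite strands, and Mcm6 holds 3 TTTNNCGC hits, of which 1 pair does. A match shows the letters only, and no binding was measured.

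Cells with 5 or more members were of several kinds. Beta cells gave 16 of 3255 (0.492%, 0.281 to 0.797), alpha cells 2 of 423 (0.473%, 0.0573 to 1.70), delta cells 1 of 136 (0.735%, 0.0186 to 4.03) and PP cells 1 of 117 (0.855%, 0.0216 to 4.67). Cells that met more than 1 limit gave 2 of 63. Cells that met no hormone limit gave 21 of 547 (3.84%, 2.39 to 5.81). That interval lies above the interval of the beta cells, and the shares of alpha, delta and PP cells could not be told from the beta share at these cell numbers.

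**Figure D1:**
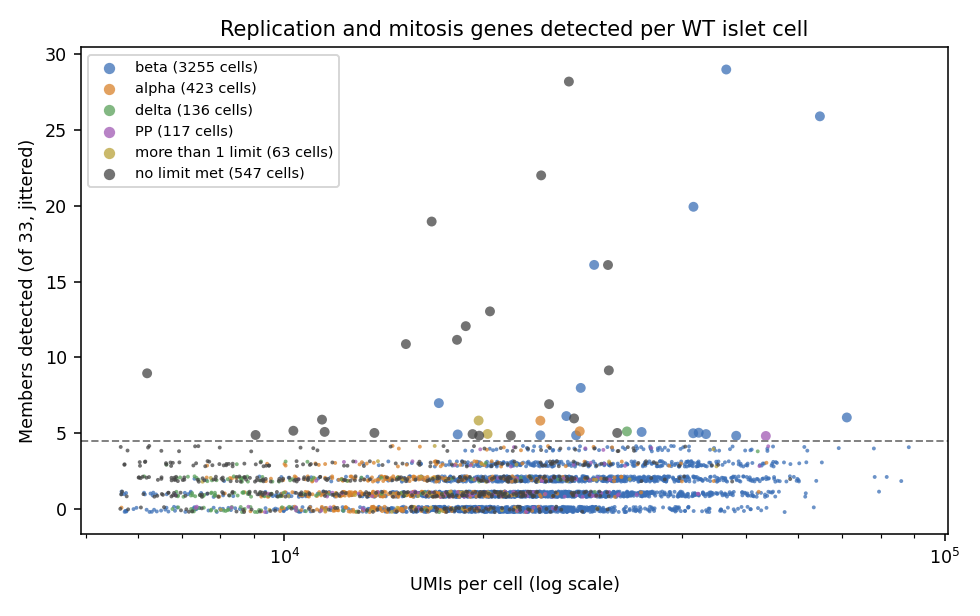
Number of the 33 members detected in each of the 4541 WT cells (y axis, jittered) against the cell's UMIs (x axis, log scale), coloured by hormone class. Points above the dashed line are the 43 cells with 5 or more members; the 15 cells with 8 or more are beta cells or cells that met no limit, and the highest alpha cell held 6.

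The 43 cells divided by how many members they held. Between 5 and 7 members were found in 28 cells and 8 or more in 15. The 15 were 5 beta cells and 10 cells that met no limit. Just under the limit, 118 cells held 4 members. After every cell was thinned to 5610 UMIs, none of the 28 cells with 5 to 7 members still held 5, while 10 of the 15 with 8 or more did (4 beta cells and 6 cells that met no limit). In all, 10 of 4541 thinned cells (0.220%, 0.106 to 0.405) held 5 or more.

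Depth moved with the lower counts. The 16 beta cells with 5 or more members had a median of 38177 UMIs, against 23415 over all beta cells. Among beta cells in 4 groups of like size by depth, the share with 3 or more members was 3.44%, 7.27%, 8.59% and 22.1% from the shallowest to the deepest. After thinning, the mean number of members per beta cell was 0.357, 0.319, 0.317 and 0.343 in the same order, with no rise. In the 11 beta cells with 5 to 7 members, 47 of 59 detections (79.7%) were a single UMI. In the 5 with 8 or more it was 24 of 99 (24.2%). The sixth beta cell was an exception among the 11, with 4 of its 7 members above 1 UMI (Stmn1 4, Ube2c 3, Cenpa 2 and Mki67 2).

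The 5 beta cells with 8 or more members varied widely in how many they held. Numbered 1 to 5, they held 29, 26, 20, 16 and 8 members, and their insulin shares were 51.3%, 57.5%, 59.2%, 48.4% and 54.8%. The next beta cell held 7. Their depths were 46686, 64719, 41640, 29451 and 28104 UMIs. They held at most 3 of 13 macrophage, 3 of 12 endothelial, 1 of 11 B cell and 0 of 10 T cell markers. Other lists were detected more. The 5 cells held 5 to 7 of 10 alpha, 4 to 7 of 13 ductal, 2 or 3 of 5 PP and 1 or 2 of 4 epsilon markers.

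Among these 5 cells, 1 held many members of both stages. Beta cell 1 held all 7 replication members, with Tyms at 11 UMIs, Pcna at 9, Mcm6 at 6, Mcm2 and Rrm2 at 3, and Mcm3 and Mcm5 at 2, together with 20 of 24 mitosis members. Its highest member was Stmn1, which encodes a protein that takes microtubules apart, at 83 UMIs. Its highest mitosis members were the mitotic kinase gene Pbk at 17, the survivin gene Birc5 at 14 and Ube2c at 10.

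The other 4 held mitosis members with almost no replication members. This covers the 7 replication members only. Of 43 replication genes outside the member list, beta cells 1 to 5 detected 35, 11, 11, 10 and 4. The median was 4 in beta cells with 4 members, and depth was not matched. Beta cell 2 held 23 of 24 mitosis members and 1 replication member, Mcm5 at 1 UMI. It had Ube2c at 41 UMIs, the centromere histone gene Cenpa at 36, the mitotic cyclins Ccnb2 at 16 and Ccnb1 at 11, and the S and G2 cyclin Ccna2 at 12. Beta cell 3 held 18 mitosis members and no replication member, with Ube2c at 18 and Cenpa at 9. Beta cell 4 held 14 and none, with Cenpa at 28, Ube2c at 12, the centromere motor gene Cenpe at 12, Cenpf, which encodes a kinetochore protein, at 10 and Pbk at 10. Beta cell 5 held 5 mitosis members, with Cenpa at 9 and Ccnb2 at 4, and 1 replication member, Mcm6 at 1.

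The 24 mitosis members split between those found mainly in such cells and those spread thinly. Over all 4541 cells, the 15 cells with 8 or more members held 86.8% of the 53 Pbk UMIs, 79.7% of the 69 Ccnb2 UMIs, 76.9% of the 13 Aurkb (Aurora B kinase) UMIs, 67.9% of the 137 Ube2c UMIs and 65.1% of the 43 Cenpe UMIs. At the other end they held 3.27% of the 153 UMIs of Kif11, the motor that pushes spindle poles apart, 10.4% of Bub1b, 10.8% of Prc1, 11.1% of Aurka and 15.8% of Kif23. Mki67, the usual marker of cycling cells, and Top2a, which untangles DNA, were in between with 50% of 80 and 59.4% of 64 UMIs. So were Cenpa (57.7% of 227), the spindle proteins Nusap1 (59.4% of 32) and Tpx2 (50% of 38), Ccnb1 (59.0% of 39), the cyclin destruction factor Cdc20 (55.1% of 49) and Cdk1 (36.0% of 50). Ccna2 (33.3% of 63), Birc5 (29.4% of 204), Kif20a, a motor of cell cleavage (23.3% of 60), Cenpf (21.2% of 179) and the polo kinase Plk1 (21.1% of 19) lay lower. Bub1, a spindle checkpoint kinase, gave 5 UMIs in all. These shares describe where the UMIs lie, and the cells were chosen by these genes.

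The replication members and the wide pair were spread over many more cells. Pcna had a UMI in 1352 cells (29.8%) and Hmgb2, a chromatin protein, in 2016 (44.4%), and the 15 cells held 2.38% and 7.26% of their UMIs. For Mcm6 it was 440 cells and 4.55%, for Mcm2 209 cells and 4.0%, and for Tyms 288 cells and 7.10%. Rrm2 (132 cells, 14.6%), Mcm3 (57 cells, 19.1%) and Mcm5 (50 cells, 28.8%) were rarer. Stmn1 had a UMI in 327 cells and 43.4% of its UMIs in the 15.

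**Figure D2:**
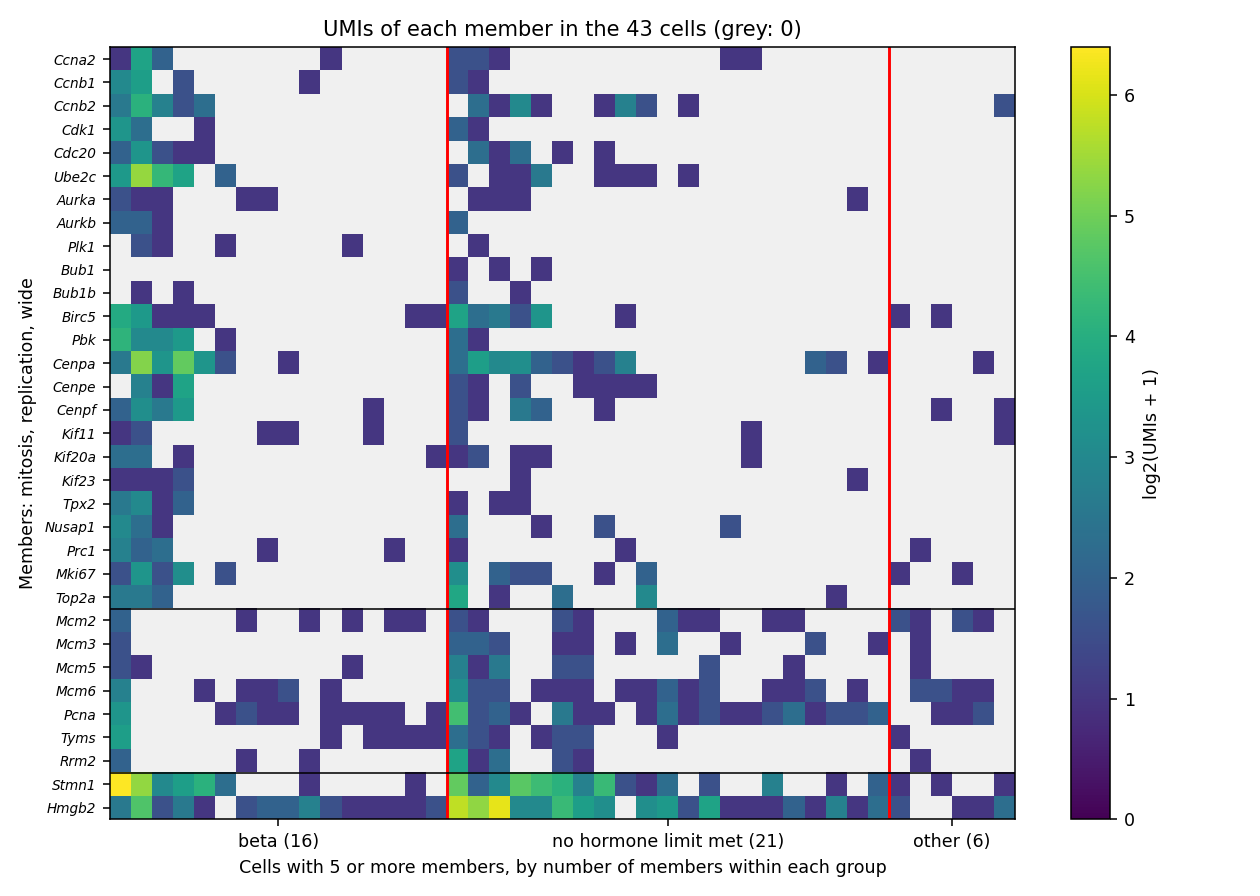
UMIs of each member (rows: mitosis, replication, then Stmn1 and Hmgb2) in the 43 cells with 5 or more members (columns, ordered by number of members within each group), as log2(UMIs + 1) with 0 in grey. Beta cells 2 to 4 fill the mitosis rows with almost empty replication rows, beta cell 1 fills both, and 47 of the 59 detections in the beta cells with 5 to 7 members are single UMIs.

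Members of both stages were counted in the same cells, as a description, since 5 or more members of either stage chose the cells. Of the 43 cells, 36 held at least 1 mitosis and 1 replication member, 3 held mitosis members only and 4 replication members only. At 2 members of a stage the numbers were 18, 10 and 15, and at 1 member after thinning 16, 8 and 12, with 7 cells holding neither. Pcna alone had a UMI in 29.8% of all cells. Of the 15 cells with 8 or more members, at 2 members of a stage 9 held both stages and 6 mitosis members only, with 0 at replication members only. At 1 member after thinning these numbers were 9, 5 and 1.

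Of the 21 cells that met no hormone limit, 12 lay in B cell-like and macrophage-like clusters. The 547 such cells were clustered without the members and without the other cell cycle lists, which gave 10 clusters, numbered from 0. A cluster of 24 cells led by Plac8, Ly6d, Cd79b, Ms4a1 and H2-DMb2 was B cell-like, with a median of 7 of 11 B cell markers. It held 8 of the 21 cells, 33.3% of the cluster (15.6 to 55.3). The median over its 24 cells was 8086 UMIs. The 8 cells were mostly deeper, at 6194, 11399, 16709, 18253, 18820, 24480, 25165 and 26967 UMIs. The macrophage-like cluster (C1qb, Ccl4, C1qc, Cxcl2, Ccl5) held 4 of its 68 cells (5.88%, 1.63 to 14.4). An unnamed cluster of 51 cells led by Mgp, Cryab, Spp1, Rgs5 and Ctgf held 4 (7.84%, 2.18 to 18.9), and its median cell had 11 of 12 endothelial and 5 of 12 mesenchymal markers. The endothelial-like cluster held 1 of 59, the beta-like cluster 1 of 142, and 2 unnamed clusters held 1 of 53 and 2 of 62. The clusters of 28, 43 and 17 cells held none.

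The B cell-like cells with members covered replication and mitosis. Summed over the cluster, mitosis members stood at 586 counts per 1000000 UMIs (CPM; exact Poisson interval 498 to 684), replication members at 537 CPM (454 to 632) and Stmn1 with Hmgb2 at 1164 CPM. The cell with the most, 28 members at 26967 UMIs and 11 of 11 B cell markers, held 19 mitosis and 7 replication members, with Hmgb2 at 54, Stmn1 at 28, Pcna at 21, Top2a at 13 and Rrm2 and Birc5 at 12 UMIs. Another held 7 members, of which 5 were of replication and 0 of mitosis. The smallest of the 43 cells, with 6194 UMIs, held 9, and all 9 were also found after thinning, which took few of its UMIs.

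Not every cell of that cluster was a B cell by its markers. Among its 8 cells, the one with 19 members had 7 of 10 T cell markers and 0 of 11 B cell markers. The one with 12 members had 9 of 13 macrophage and 7 of 11 B cell markers. The other 6 had 6 to 11 B cell markers. In the macrophage-like cluster, the cell with 9 members held 12 of 13 macrophage markers and 19.99% insulin. In cluster 0, the cell with 16 members held 27.5% insulin, 1.30% Sst and 1.92% Ppy, so it lay just under the beta limit. Among the 16 beta cells, 1 with 5 members and 46.2% insulin held 9 of 13 macrophage markers. In the cluster led by Mgp, 1 cell with 5 members held 10 of 13 macrophage and 10 of 12 mesenchymal markers. That cell also held 11 of 13 ductal but only 3 of 12 endothelial markers. Doublets were not called, and whether these mixed cells are 2 cells in 1 droplet was not tested.

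The pooled level of each stage differed by class. Mitosis members together stood at 14.9 CPM (14.0 to 15.7) in beta, 15.7 (12.9 to 18.9) in alpha, 16.9 (11.1 to 24.8) in delta, 8.26 (5.12 to 12.6) in PP and 49.4 (45.0 to 54.1) in cells that met no limit. Of the beta sum, 41.4% lay in the 16 cells, and without them it stood at 8.77 CPM (8.14 to 9.43). Of the sum in cells that met no limit, 55.6% lay in their 21 cells, and without them it stood at 22.96 CPM (19.9 to 26.3). The alpha, delta and PP sums stood at 15.4, 16.6 and 7.64 CPM without their cells of 5 or more. Released RNA held these genes at 22.96 CPM, above all 4 hormone classes without their counted cells, so nothing is read from mitosis genes there. At equal depth, a UMI of any mitosis member was found in 4.64% of beta, 5.44% of alpha, 10.3% of delta and 4.27% of PP cells and in 16.6% of cells that met no limit.

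Replication members followed another order. They stood at 24.0 CPM (23.01 to 25.1) in beta, 40.5 (33.1 to 49.2) in PP, 43.01 (38.3 to 48.2) in alpha, 51.4 (40.7 to 64.1) in delta and 74.8 (69.3 to 80.6) in cells that met no limit, with 35.9 CPM in released RNA. Beta was the lowest of these 5 classes and lay below released RNA, and the intervals of PP, alpha and delta overlap. The 16 beta cells held 3.30% of the beta sum, so it stayed at 23.4 CPM without them. Stmn1 and Hmgb2 together stood at 31.9 CPM in beta, 31.1 in PP, 52.1 in alpha, 69.0 in delta and 106 in cells that met no limit.

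**Figure D3:**
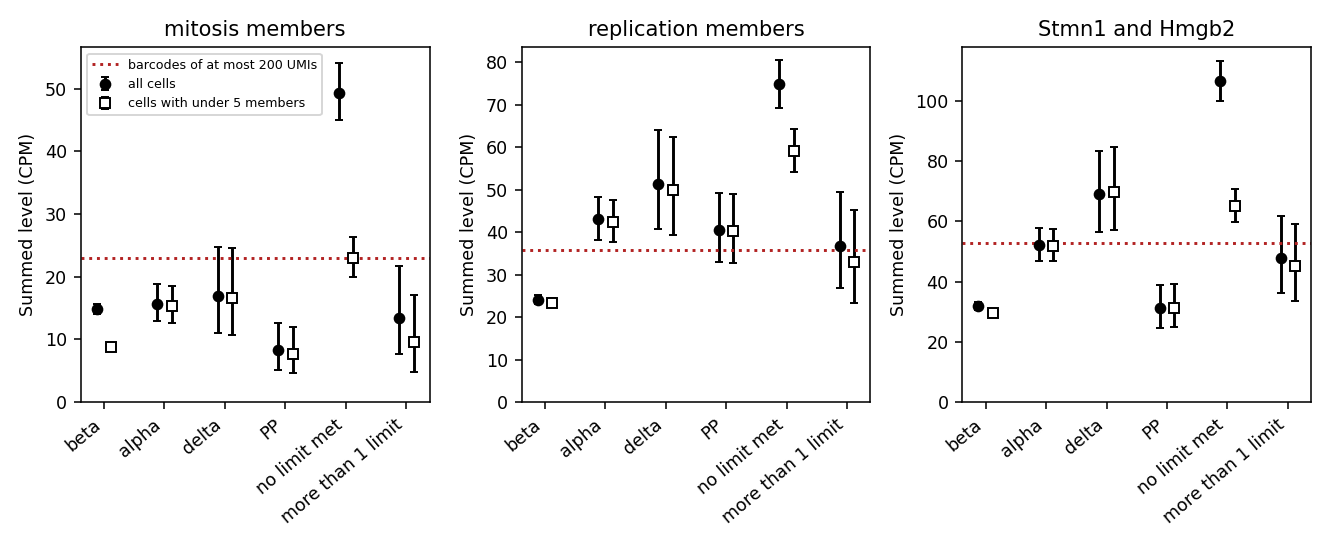
Summed level in CPM (y axes from 0) of the mitosis members, replication members and Stmn1 with Hmgb2 in each hormone class, for all cells (filled circles) and for cells with under 5 members (open squares), with exact Poisson intervals; the dotted line is released RNA. The mitosis level falls from 14.9 to 8.77 in beta cells and from 49.4 to 22.96 in cells that met no limit when the counted cells are left out, and the replication level of beta cells hardly moves.

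The order of the classes depended on the total used. Insulin took 51.3% of beta cell UMIs and 3.24% of alpha cell UMIs. With hormone and mitochondrial genes left out of the total, all 33 members together stood at 157 CPM in beta, 160 in alpha, 177 in delta, 145 in PP and 299 in cells that met no limit, where with all UMIs they stood at 70.8, 111, 137, 79.9 and 231. The last value depended on the class limits: it was 538 with all hormone limits at 0.5 times and 125 at 1.5 times. On the log2(CPM + 1) scale the median gene was higher than in beta cells by 0.45 in alpha, 0.88 in delta, 0.32 in PP and 0.78 in cells that met no limit. Genes were called different at 2-fold relative to the median gene, among those of at least 20 CPM in either class.

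Few members reached that floor between classes. Pcna and Hmgb2 were tested in alpha, delta and PP cells, and 0 of these 2 were called, where 8.04% of 4562 genes were called higher and 7.8% lower in alpha, 7.15% and 6.35% of 5592 in delta, and 5.15% and 5.94% of 4410 in PP cells. In cells that met no limit Pcna, Hmgb2 and Stmn1 were tested, and Stmn1 was called higher (26.9 against 4.34 CPM), where 8.17% of 5657 genes were called higher and 1.27% lower. The other 30 members stayed under the floor there. Pcna stood at 14.1 CPM in beta, 23.4 in alpha, 26.03 in delta and 20.1 in PP cells, and relative to the median gene at log2 0.25, -0.03 and 0.17 in the last 3.

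Mcm6, a subunit of the Mcm ring, stood higher in each of the other hormone classes than in beta cells. It was found at 3.09 CPM (2.72 to 3.49) in beta, 12.5 (10.0 to 15.4) in alpha, 12.4 (7.44 to 19.3) in delta, 11.8 (7.97 to 16.9) in PP and 12.6 (10.5 to 15.2) in cells that met no limit. The plain ratio to beta was 4.05 (3.14 to 5.18) in alpha, 4.0 (2.37 to 6.38) in delta and 3.82 (2.53 to 5.59) in PP cells, and 4.20, 4.03 and 3.79 among cells with under 5 members. A UMI of it was found in 16.8% of alpha and 6.85% of beta cells, although alpha cells were shallower. If all insulin in alpha, delta and PP cells were released RNA, that RNA would bring at most 0.483, 0.796 and 0.751 CPM of Mcm6. Released RNA held Mcm6 at 5.08 CPM. Mcm6 lies under the 20 CPM floor. Relative to the median gene it stood at log2 1.27, 0.83 and 1.33, so with a floor of 5 CPM it was called in alpha and PP but not in delta cells, where 7.37% of 9033 genes were called higher and 7.68% lower in alpha, 5.93% and 6.45% of 9001 in PP, and 8.3% and 7.36% of 9812 in delta cells. In cells that met no limit the same floor called 11% of 10293 genes higher and 1.2% lower, with 2 of 6 tested members, Cenpa and Stmn1, among the higher. It was singled out after its values were seen.

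Other members with high ratios rested on fewer UMIs. Mcm5 gave 30 UMIs in beta and 5 in delta cells, a ratio of 9.02 (2.73 to 23.5), and 2 each in alpha and PP cells, with ratios of 0.80 (0.09 to 3.14) and 2.18 (0.25 to 8.599). The 5 UMIs lay in 2 of 136 delta cells, and the interval takes each UMI as independent. Kif11 stood at 0.974 CPM in beta (81 UMIs), 3.45 in alpha (24), 5.21 in delta (8) and 2.75 in PP cells (7), with ratios of 3.54 (2.15 to 5.65), 5.34 (2.23 to 11.0) and 2.83 (1.10 to 6.10). Released RNA held it at 1.52 CPM, above the beta level. If all insulin there were released RNA, it would bring at most 0.145, 0.239 and 0.225 CPM of Kif11 to alpha, delta and PP cells. The ratios are plain, and the median gene was itself higher than in beta cells by log2 0.45, 0.88 and 0.32. Kif11 is a mitosis member, and nothing is read from its ratios. Mcm3 gave 17 UMIs in beta cells and 0 in alpha and delta cells, which allows up to 0.432 and 1.95 CPM there, against 4.97 CPM in cells that met no limit. Hmgb2 stood at 27.5 CPM in beta, 48.9 in alpha, 62.5 in delta, 26.8 in PP and 79.4 in cells that met no limit.

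Genes that did not choose the cells were then read in them. The other mitosis genes, 58 in all, stood between 172 and 184 CPM in beta cells with 0, 1, 2, 3 or 4 members. They stood at 220 CPM (176 to 271) in those with 5 to 7 and at 3466 CPM (3219 to 3727) in those with 8 or more. The 43 other replication genes stood between 144 and 159 CPM in beta cells with 0 to 4 members, at 187 (147 to 235) with 5 to 7 and at 722 (612 to 846) with 8 or more. The 41 chromatin and tubulin genes stood between 1633 and 1730, at 2101 and at 5935 CPM. For the mitosis list the step lay between 5 to 7 and 8 or more members. The summed replication list rose there too, but beta cell 1 held 109 of its 152 UMIs in the 5 cells. Beta cells 2 to 5 held 16, 11, 11 and 5, so the replication step rested mostly on 1 cell.

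In cells that met no limit the lists followed another order. Other mitosis genes stood between 238 and 372 CPM with 0 to 4 members, at 337 CPM (262 to 428) with 5 to 7 and at 1722 CPM (1549 to 1909) with 8 or more. Other replication genes stood between 256 and 341 CPM with 0 to 4, at 700 CPM (589 to 825) with 5 to 7 and at 2057 CPM (1867 to 2261) with 8 or more. The B cell-like cluster carried the replication list, by a split made after seeing the data. Its 2 cells with 5 to 7 members held 79 of the 141 UMIs, and the other 9 stood at 376 CPM (288 to 482), which overlaps the interval in cells with 4 (297 to 391). With 8 or more members, its 6 cells stood at 3599 CPM (3255 to 3969) and the 4 cells of other clusters at 297 CPM (199 to 426). The mitosis list stood at 2208 CPM in those 6 cells and at 1167 CPM (963 to 1402) in those 4. Of the 6 cells, the one with 28 members held 161 of the 401 replication list UMIs and 123 of the 246 mitosis list UMIs. The cell with 19 members, which had T cell markers, held 70 of the 401. The cell with 12 members, which had macrophage and B cell markers, held 66, and the rest held 50, 32 and 22. Of the 4 cells, the one with 16 members held 61 of the 114 mitosis list UMIs.

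**Figure D4:**
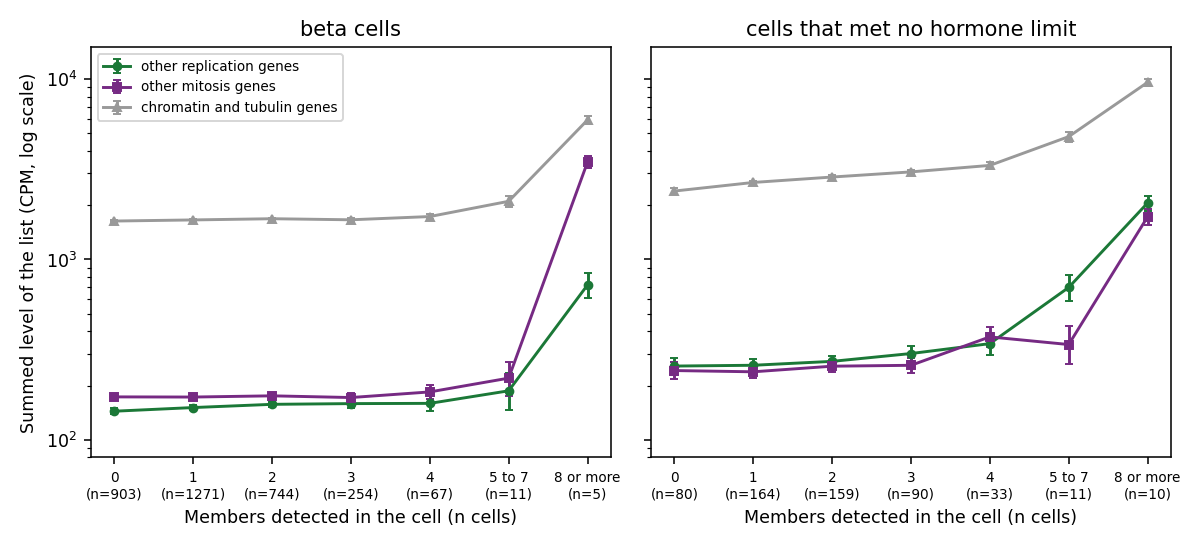
Summed level in CPM (log scale) of 3 gene lists that did not choose the cells, against the number of members detected, in beta cells (left) and cells that met no hormone limit (right), with exact Poisson intervals and the number of cells under each point. In beta cells the mitosis list stands at 220 CPM with 5 to 7 members and at 3466 CPM with 8 or more; on the right the replication list stands at 700 CPM with 5 to 7 members, of which 2 B cell-like cells hold 79 of 141 UMIs.

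Against the other 3239 beta cells, mitosis genes were higher in the 16 beta cells. Of 3958 non-member genes with at least 20 CPM on either side, 2.68% were called higher and 2.32% lower at 2-fold relative to the median gene. Of the other mitosis genes 18 were tested, 16 were called higher and the list median was log2 3.63. Of the other replication genes 2 of 3 tested were higher, and of the chromatin and tubulin genes 11 of 26, with a median of 0.87. A gene that is rare in the other cells passes the floor only if it is high in the 16, so these counts are a description. The summed levels above have no such filter. Without beta cell 1 the numbers were 13 of 15, 1 of 2 and 5 of 24, a choice made after seeing the data.

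Several of the 10 genes with the highest ratios are known from mitosis. Hmmr, a spindle protein, gave 28 UMIs in the 16 cells and 2 in the 3239, and Cdca3, which promotes entry into mitosis, gave 37 and 17. Knstrn, a spindle protein, gave 34 and 43, and Cks2, a Cdk1 partner, 74 and 124. Cenpm, Racgap1 (which acts in cell cleavage), Cenpw and Cks1b followed at 53.4, 16.8, 16.6 and 14.0 times the level of the other cells. The 5 cells with 8 or more members held 98.6% of the Cks2 UMIs and 100% of the Knstrn UMIs found in the 16.

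Lockd, a long noncoding RNA transcribed beside the cell cycle inhibitor gene Cdkn1b, stood at 368 CPM against 3.79 CPM, a ratio of 97.0 (81.3 to 116). It gave 25, 76, 52, 44 and 8 UMIs in beta cells 1 to 5, 18 in the other 11 and 313 in the 3239. It was found in all 5 cells and in 8.71% of the 3239, and in released RNA at 4.47 CPM. The histone gene Hist1h2ap, which has near-identical copies that share reads, gave 94 UMIs in the 16 cells and 509 in the 3239. Of the 94, 86 lay in beta cell 1, the cell with all 7 replication members. Without that cell its value fell from log2 4.41 to 1.06.

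**Figure D5:**
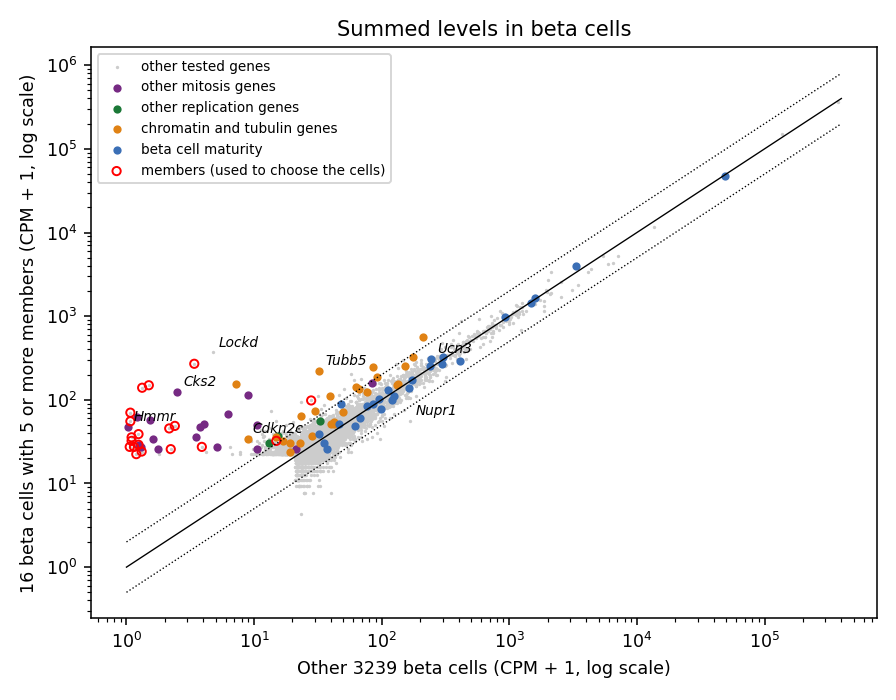
Level of each tested gene in the 16 beta cells with 5 or more members (y axis) against the other 3239 beta cells (x axis), as CPM + 1 on log scales; the solid line marks equal levels and the dotted lines 2-fold either way. Of the other mitosis genes (purple) 16 of 18 were called higher, of the beta cell maturity genes (blue) 0 of 26 were called, and members (open red) chose the cells. Over all tested non-member genes 2.68% were called higher and 2.32% lower.

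Lists of beta cell identity and stress had few calls in the 16 cells as a group. Over all 3958 tested genes 2.68% were called higher and 2.32% lower. A count of 0 in lists of this size is near that share, so nothing is read from it. Of 26 tested genes of beta cell maturity 0 were called in either direction (median log2 0.00), and so were 0 of 22 genes of the unfolded protein response (-0.25), 0 of 24 ribosomal protein genes (-0.03), 0 of 10 genes of the p53 response (-0.11) and 0 of 4 cycle entry signals of islet cells (-0.16). Of 14 immediate early genes, which answer stimuli within minutes, Fos and Nr4a2 were higher. Ucn3, which encodes the hormone urocortin 3 of mature beta cells, had 305 against 243 CPM. Among 10 tested cyclin, kinase and inhibitor genes of G1, Cdkn2c (32.98 against 7.69 CPM) and Cdkn2d (29.7 against 9.94 CPM), which encode inhibitors of Cdk4 and Cdk6, were called higher, and without beta cell 1 the count was 1 of 9. The G1 cyclin Ccnd2 stood at 404 against 452 CPM. Nupr1, a stress-induced nuclear protein, was the lowest gene by the rule for named genes, at 54.4 against 165 CPM (ratio 0.33, 0.23 to 0.46), followed by Baiap2, Rbm15b, Lurap1l and BC005537 at 0.35 to 0.46.

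The 5 beta cells with 8 or more members differed more, over a wider background of 12.3% of 4271 genes called higher and 13% lower. Of the other mitosis genes 38 of 39 tested were higher (median log2 4.96), of the other replication genes 10 of 12 (2.43) and of the chromatin and tubulin genes 18 of 28 (1.75), under the same floor. Beta cell 1 held 109 of the 152 UMIs of the replication list in these cells. Of 26 maturity genes 4 were lower, a count near the 13% of all tested genes, so nothing is read from it. Among the 4 were Ucn3 (104 against 244 CPM, ratio 0.43, 0.27 to 0.65), G6pc2, a glucose-6-phosphatase (138 against 295), and Trpm5, a cation channel (66.5 against 163). The maturity median was log2 -0.33. Ucn3 gave 5, 9, 3, 2 and 3 UMIs in the 5 cells and 163 in the other 11, so most of the Ucn3 in the 16 cells lay in those with 5 to 7 members. Nupr1 gave 0, 1, 2, 0 and 0 UMIs in the 5 cells, a ratio of 0.09 (0.02 to 0.25), and 30 in the other 11.

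The 21 cells that met no limit were compared in the same way. Against the other 526 such cells, 14.7% of 6546 genes were called higher and 10.8% lower. Of the other replication genes 20 of 21 tested were higher (median log2 2.36), of the other mitosis genes 14 of 17 (2.63) and of the chromatin and tubulin genes 20 of 31 (1.31). Without the cell with 28 members they were 18 of 19, 8 of 12 and 18 of 31. As in beta cells, a gene rare in the other cells enters only where it is high in the 21, so these counts and medians are a description and support nothing. The highest, 2810417H13Rik, now named Pclaf, encodes a partner of Pcna and gave 87 UMIs in the 21 cells and 2 in the 526. Cdca3 gave 29 and 0, at least 208-fold higher against the limit of 3 UMIs in the 526 cells. B cell genes (Cd79b, Ms4a1, Pou2af1, Tnfrsf13c) and Ptprcap, a gene of lymphocytes, were also among the 10 highest, and 20 of 26 maturity genes were called lower. The share of B cell-like cells was 8 of 21 on one side and 16 of 526 on the other, and its part in these calls was not tested.

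A comparison within the B cell-like cluster was added after seeing the data. The 8 cells with 5 or more members and the other 16 were compared over 5849 genes, of which 21.3% were called higher and 21.4% lower. All of the 8 but the smallest were deeper than the cluster's median of 8086 UMIs, and depth was not matched. Of the other replication genes 32 of 36 tested were higher (median log2 3.74) and of the other mitosis genes 31 of 34 (4.46), while 0 of 24 ribosomal protein genes were called. Without the cell with 28 members they were 27 of 30 and 19 of 21. The floor acts here too, and genes near 0 in the 16 cells enter only through the 8. Pclaf gave 86 UMIs in the 8 cells and 0 in the 16, and Dut, which clears dUTP, 68 and 2. Ccl4, the highest by ratio, gave 367 of 372 UMIs in 1 cell. Counts in the 16 cells were low and the intervals wide, with 7.46 to 236 for the ratio of Dut.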

How the data were processed

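Single-cell 3′ RNA libraries of mouse islets were used as UMI counts per gene and barcode, as deposited by the authors without a barcode filter (27998 genes, 737280 barcodes in the WT library). Per the submitters' processing notes, FastQC, Trimmomatic and mm10 were used. The aligner and the counter: not given in the sources used here. TG cells were not analysed here, so barcodes shared between the libraries were not counted.

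The UMI minimum, 5610, is 10% of the 99th percentile of the 3000 largest barcodes. The 15% mitochondrial limit removed 6 cells. No doublet caller was run. Thinning drew 5610 UMIs per cell without replacement (seed 7). Counts were summed over cells as CPM, with 95% exact Poisson, binomial or conditional binomial intervals that cover counting error only. Contrasts used log2(CPM + 1) relative to the median gene, at least 20 CPM on either side and 2-fold, with no test. A level of 0 is bounded at 3 UMIs. Cells under all hormone limits were clustered (Leiden, resolution 1, 2000 variable genes, 20 components, 10 neighbours). A cluster was named from at least 3 markers of a list among its top 50 genes, where no other list had 2 or more there. The same list also had to have the largest share of markers detected in the median cell. This condition on the median cell was added after seeing the data. The scripts were tested on simulated data. Python 3.11.15, numpy 2.4.6, scipy 1.17.1, pandas 2.3.3, scanpy 1.11.5, igraph 0.11.9 and matplotlib 3.10.9 were used.

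The members and all gene lists were chosen with earlier results of these data known. Named genes were the members, the 10 non-members with the highest ratios (at least 20 UMIs) and the 5 with the lowest (at least 50 expected UMIs) in each contrast, the extremes of each list and the 5 leading genes of each cluster; others are said to be chosen after seeing values. Of the 62 other mitosis genes, 58 were in the gene list. The result of 1 gene of the maturity list is not reported here. Promoters are RefSeq sequences of GRCm38.p6, found for 27 members.

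Alternatives were other UMI, member, mitochondrial and class limits, thinning, fewer members, other scalings, floors, folds, pseudocounts and weights, and leaving out the cell with the most members.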

Additional observations from a re-analysis of the deposited data

How the results depend on the processing

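With 1 library per group no spread between animals is known. In the 4 depth groups of beta cells, from the shallowest to the deepest, 2, 0, 5 and 9 cells held 5 or more members. Why the count moved with depth was not tested. No paired analysis was possible because each group has 1 library. Cells past the limit (43 in all, then beta, alpha, delta, PP, no limit and more than 1 limit) were 566 at 3 members (337, 50, 8, 18, 144, 9), 15 at 8 (5, 0, 0, 0, 10, 0), 12 at 10 (4, 0, 0, 0, 8, 0), 10 after thinning (4, 0, 0, 0, 6, 0), 21 without Stmn1 and Hmgb2 (8, 0, 0, 0, 12, 1), 17 also without Pcna (6, 0, 0, 0, 10, 1) and 12 at 2 UMIs of a member (4, 0, 0, 0, 8, 0). With hormone limits at 0.5 times, 2 PP cells passed. At 1.5 times, 2 delta cells and 0 cells of more than 1 limit did. The level of all members without hormone and mitochondrial UMIs was 157, 160, 177, 145, 299 and 155 CPM in the same class order. With equal weight per cell it was 67.8 in beta cells and 273 in cells under all limits, and without the 1% of cells with the most UMIs 68.2 in beta cells. In cells under all limits it was 538 at limits of 0.5 times and 125 at 1.5 times, with 55.5 in cells of more than 1 limit. At 2 times the UMI minimum alpha, delta and cells under all limits had 103, 105 and 199 CPM. Non-member cell cycle genes called higher in beta cells (29) were 54 without hormone and mitochondrial UMIs, 69 at a floor of 5 CPM, 14 at 50 CPM, 66 at 8 members, 53 without Stmn1 and Hmgb2 and 19 without beta cell 1. Genes of other lists called higher there (4) were 7, 1, 11 and 2 at floors of 5 and 50 CPM, at 1.5-fold and without beta cell 1, and those called lower (0) were 4 without hormone and mitochondrial UMIs, 2 at 5 CPM, 2 at 1.5-fold, 9 at 8 members and 9 without Stmn1 and Hmgb2. In cells under all limits the cell cycle genes (54) were 94 and 26 at floors of 5 and 50 CPM, the other lists' higher genes (14) 22, 7 and, at 1.5-fold, 33, and the lower ones (23) 37 at 1.5-fold and 39 at 8 members. Members called higher than in beta cells were 1 in alpha at a floor of 5 CPM, 1 in delta by plain CPM, 1 in PP without hormone and mitochondrial UMIs and 1 at 5 CPM. In cells under all limits (1) they were 3 by plain CPM, 2 at 5 CPM, 0 at 50 CPM, 3 at 1.5-fold and 2 at equal weight. Cells with mitosis members only, replication members only and both (3, 4, 36) were 10, 15 and 18 at 2 members and 8, 12 and 16 after thinning. In cells under all limits, 3 genes reversed at 8 members and without Stmn1 and Hmgb2: Fos from log2 1.14 to -0.10 and -0.23, Ctgf from 1.65 to -5.17 and -5.16, and Pdgfrb from 1.497 to -4.08 and -4.06. The cause was not tested. The other 153 values of these comparisons under an alternative moved by less than 1.5 times for counts of genes or cells, or stayed within the counting interval.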

Other observations

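Some members were abundant in cells that held almost no other member. Cenpf, a kinetochore protein gene, gave 24, 21, 16 and 10 UMIs in 4 beta cells and 8 and 8 in 2 alpha cells, all with 1 or 2 members detected. These 6 cells had 11013 to 21913 UMIs and held 87 of the 179 Cenpf UMIs (48.6%), more than the 38 in the 15 cells with 8 or more members. Hmgb2 gave 15, 15, 15, 10, 10 and 8 UMIs in 6 beta cells of 2 or 3 members and 31302 to 48739 UMIs. Pcna gave 12 and 9 UMIs in 2 macrophage-like cells of 3 members and 9470 and 9481 UMIs. The limit of 8 UMIs was chosen after the values were seen.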
